A study of Mus musculus with 12 samples.

Results

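Transcripts of the BCL2 family were followed in mouse lung cancer cells in which the kinase gene Lkb1 (Stk11) was deleted or the salt-inducible kinases (Sik) were targeted. The members were the rows of the deposited count table with the symbols Bcl2, Bcl2l1, Mcl1, Bax, Bak1, Bcl2l11, Bmf, Bbc3, Pmaip1 and Bcl2l15, which are 10 of its 30743 genes. The 12 libraries fell into 4 groups by title: 4 of KT, 3 of KT;Lkb1f/f (here Lkb1), 3 of sgSik1 and 2 of sgSik1-3. The genotype label joins the last 2 groups as KT;H11LSL-Cas9_sgSik, that is, KT carrying a Cre-dependent Cas9 at H11 and guides against Sik genes. These 5 libraries are called Sik here. The titles of KT and Lkb1 name no Cas9 and no guide, and no title names Cas9 with a control guide. Sik targeting therefore cannot be told apart from Cas9 or guide delivery in the comparisons of Sik groups with KT or Lkb1. Every group shares the KT background, which the labels do not spell out, on a mixed BL6/129 strain. The cells were sorted without those staining for CD45, CD31, F4/80 or Ter119. The name of KT replicate 1 differs from that of KT replicates 2 to 4, which name a lentiviral Cre. The labels do not say that libraries came from separate animals, so p-values measure the spread between these libraries, which may be technical.

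Proteins of the BCL2 family control permeabilisation of the outer mitochondrial membrane, the step that releases cytochrome c and starts the caspase cascade. BCL2, BCL-XL (Bcl2l1) and MCL1 hold the effectors BAX and BAK in check. BH3-only proteins such as BIM (Bcl2l11), BMF, PUMA (Bbc3) and NOXA (Pmaip1) bind the survival proteins and free or activate the effectors. MCL1 and NOXA turn over rapidly, and much of the control of the family is at the protein level, which counts of transcripts do not measure.

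Across the family, the survival and effector genes did not pass edgeR's test in any comparison of the main fits of all 12 libraries. The calls there were decreases of Bcl2l15 and Bmf. Bcl2l15, an atypical member known from gut epithelium, fell in Lkb1 and in Sik against KT. Bmf, a BH3-only gene, fell in Sik, and its level was lowest in sgSik1-3. Without KT replicates 2 and 3, which stand apart in the number of genes detected, Bcl2l15 was called in neither comparison and Bmf was called in sgSik1-3 alone, while the fold changes kept their direction. The number of genes called over the whole table then dropped from 158 to 3 in Lkb1 and from 1679 to 98 in Sik.

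Sequences just upstream of an annotated transcription start of each called gene are shown first. That of Bcl2 is beside them because it holds the same short motif as Bmf. The sequences come from the RefSeq promoter table (GRCm38.p6), on the strand of the gene and 5′ to 3′. They stop before the first exon base annotated in GENCODE M21. Capitals mark TGACG on the gene's own strand, the core of a cAMP response element. The stretch of Bmf is chr2:118549688-118549936 (minus strand), that of Bcl2 is chr1:106714291-106714540 (minus strand) and that of Bcl2l15 is chr3:103832446-103832600 (plus strand). The RefSeq span of Bcl2l15 starts earlier, at 103831036, so its stretch lies inside that span.
Bmf: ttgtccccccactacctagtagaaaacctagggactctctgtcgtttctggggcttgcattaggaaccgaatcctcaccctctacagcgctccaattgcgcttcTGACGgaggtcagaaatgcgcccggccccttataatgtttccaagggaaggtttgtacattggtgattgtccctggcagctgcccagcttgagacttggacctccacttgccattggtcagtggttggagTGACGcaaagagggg
Bcl2: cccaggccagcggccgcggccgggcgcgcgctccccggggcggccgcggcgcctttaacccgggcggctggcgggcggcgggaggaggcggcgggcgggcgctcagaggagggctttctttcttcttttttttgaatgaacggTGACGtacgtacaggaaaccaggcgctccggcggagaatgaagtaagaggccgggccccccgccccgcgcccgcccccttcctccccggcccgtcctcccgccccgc
Bcl2l15: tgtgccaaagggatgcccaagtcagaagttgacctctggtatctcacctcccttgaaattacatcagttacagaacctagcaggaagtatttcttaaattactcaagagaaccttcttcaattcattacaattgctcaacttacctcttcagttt
The stretches of Bmf and Bcl2 differ in base composition, with 53.8% and 74.8% G or C, against 39.4% in the shorter stretch of Bcl2l15.

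Motifs were searched on both strands in windows from 250 bases before to 50 bases after each start. TGACG, which also lies inside the full element TGACGTCA, was found in 4 of the 9 members that have a promoter in the table. These were Bmf, at positions -146 to -142 and -16 to -12, Bcl2 at -107 to -103, Bbc3 and Mcl1. Of all 32851 promoters in the table, 20.8% held TGACG. The 9 members have 16 promoters there, and a member was counted if any of them held the motif. Shares over all promoters are per single promoter, so the counts of members are not on the same footing and show no enrichment. TGACGTCA was in no member's window (1.79% of all promoters), and TGANTCA, the AP-1 site, was in none either (7.81%). GGGCGG, the GC box, was in 6 of 9 members (35.7% of all promoters). TGTTTAC, the core of forkhead sites, was in Bbc3 and Bcl2l11 (3.65%). A match is a description of the letters and not evidence that a factor binds, and Pmaip1 had no entry in the promoter table.

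The counts behind these levels ranged from 3847760 to 13955181 per library. Levels are given in CPM, which is the count scaled to a library size adjusted by TMM. The adjusted size was 1.136 to 1.866 times the total in KT, 0.847 to 1.11 times in Lkb1 and 0.394 to 1.313 times in Sik. A count above 0 was found for 23582 and 23747 genes in KT replicates 2 and 3, where the remaining 10 libraries had 14283 to 16533. Of receptor genes of the olfactory and vomeronasal families, 1000 and 1066 were detected there and 14 to 58 elsewhere. The 4 most abundant transcripts took from 18.43% of counts in KT replicate 1 to 74.23% in sgSik1 replicate 1. Stk11 was at 31.0 to 44.7 CPM in KT and 9.23 to 16.6 CPM in Lkb1. Sik3 was at 26.9 to 46.7 CPM in KT, 9.17 to 21.03 in the libraries labelled sgSik1 and 8.74 to 11.95 in those labelled sgSik1-3, while Sik1 was higher in every Sik library (104.7 to 514.4) than in KT (38.2 to 59.6). The 12 markers of alveolar type 2 and tumour epithelium, such as Sftpc and Epcam, summed to at least 10500 CPM in every library, and the 6 leukocyte markers to 79.5 to 224.1 CPM. A transcript level does not show whether a guide edited its gene. Fewer cells of a type and less RNA per cell cannot be told apart in bulk samples.

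Levels were compared between genes only per kilobase of exon. In KT, Mcl1 was the highest member, at 75.3 ± 28.2 CPM per kb (SD, n = 4), and its range of 47.7 to 113.9 lay above that of every other member. Bax followed at 11.4 ± 5.62, Bcl2l1 at 8.62 ± 4.83, Bmf at 6.59 ± 1.91 and Bak1 at 4.91 ± 2.31 CPM per kb. Bcl2l11 was at 3.21 ± 0.435, Bcl2l15 at 2.76 ± 1.47, Pmaip1 at 1.93 ± 1.46, Bcl2 at 0.987 ± 0.294 and Bbc3 at 0.465 ± 0.168 CPM per kb. Below Mcl1, the ranges of neighbours in this order overlapped over the 4 KT libraries.

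**Figure D1:**
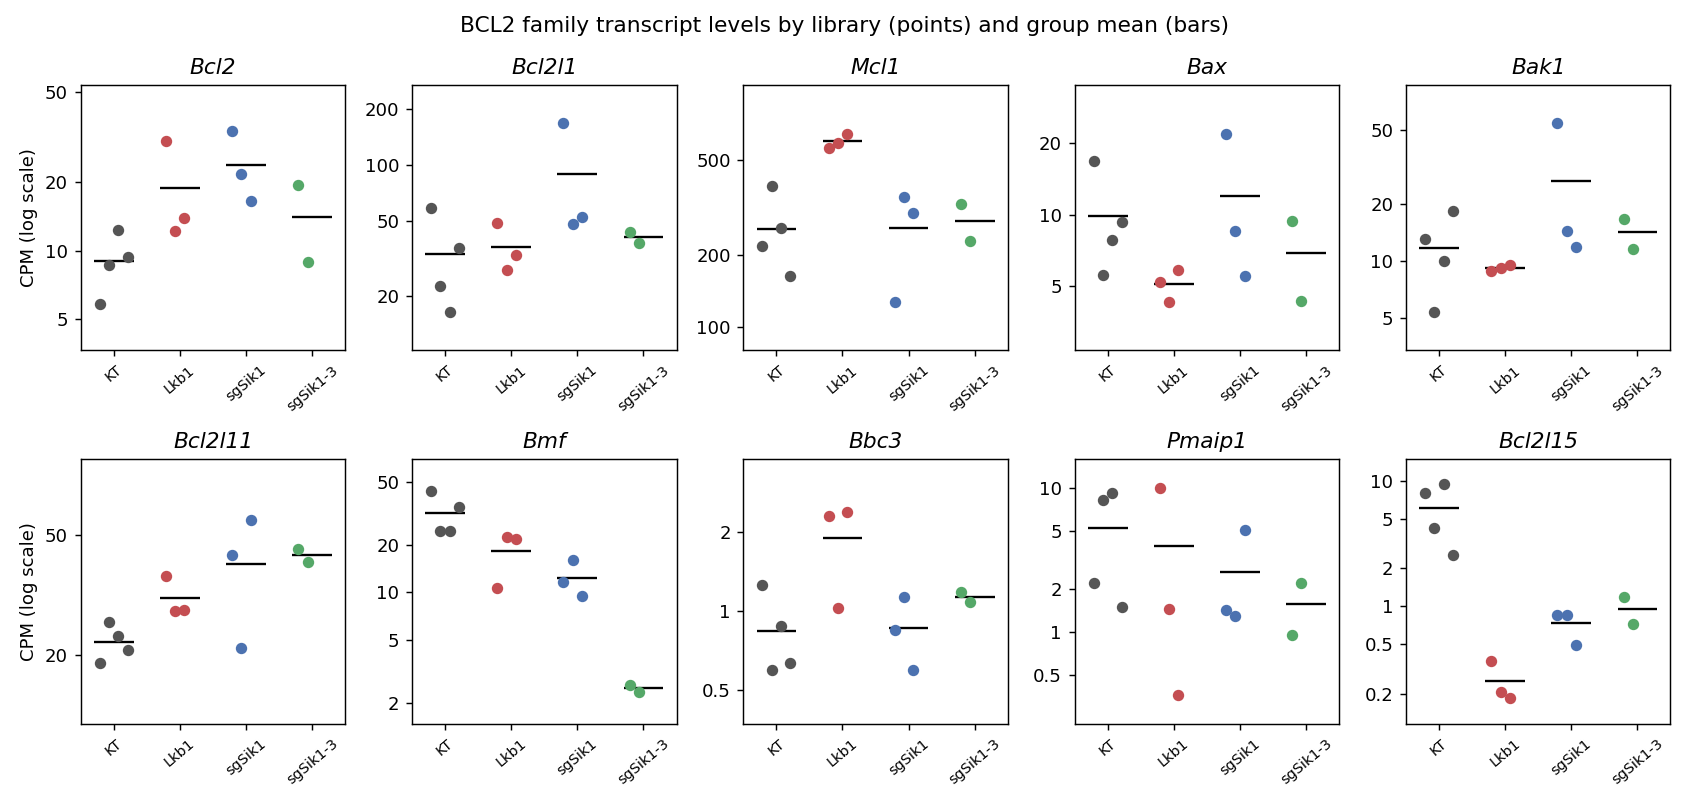
CPM of the 10 members (log axis) in each of the 12 libraries (points) and the mean of each group (bars). Bcl2l15 lies lower in every library of the other groups than in any KT library, and Bmf is lowest in the 2 sgSik1-3 libraries.

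Of the 10 members, 1 fell and none rose in Lkb1 against KT, beside 0.552% of all tested genes that fell in this comparison and 0.611% that rose (edgeR quasi-likelihood test, Benjamini-Hochberg adjustment). Ranges of Lkb1 and KT did not overlap for 2 members that were higher and 2 that were lower, beside 6.38% and 8.3% of all tested genes. In Sik against KT, 2 members fell and none rose, beside 6.56% and 5.81% of all tested genes. Ranges did not overlap for 2 members, both lower in Sik, beside 8.79% of all tested genes. The members' median log2 fold change was -0.10 in Lkb1 against KT and 0.12 in Sik against KT, beside -0.04 and -0.03 over all tested genes. The comparisons share the KT libraries.

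**Figure D2:**
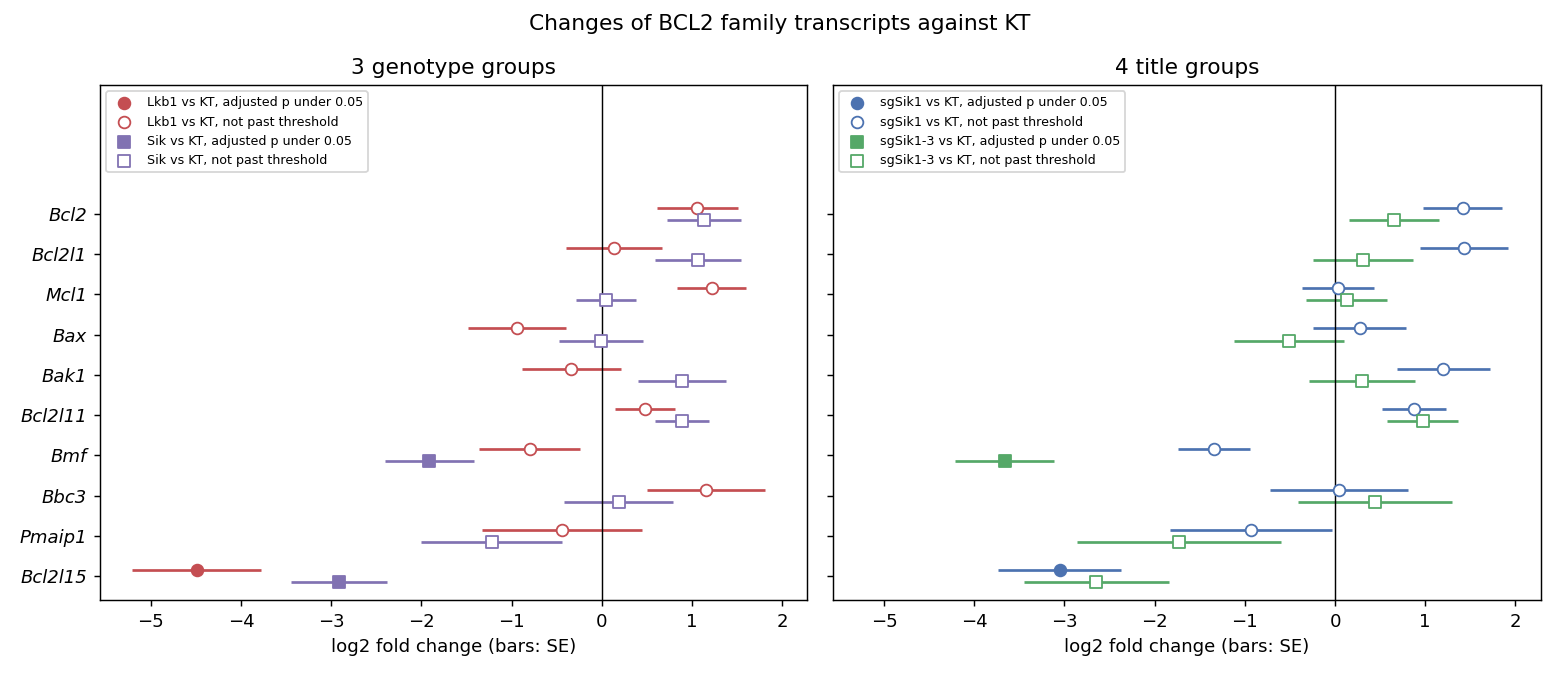
Log2 fold changes of the 10 members against KT (x axis), with SE bars, for the 3 genotype groups (left) and the 4 title groups (right). Filled symbols passed an adjusted p of 0.05, which in the left panel are Bcl2l15 in both comparisons and Bmf in Sik against KT.

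Bcl2l15 spans chr3:103832601-103854618 on the plus strand (GRCm38), with 2188 bp of exon. It had 8.02, 4.17, 9.39 and 2.55 CPM in the KT libraries, against 0.365, 0.206 and 0.184 for Lkb1, 0.853, 0.854 and 0.491 for sgSik1 and 1.18 and 0.724 for sgSik1-3. All 8 libraries outside KT lay below the lowest KT library. These levels rest on few counts: 236 over the 4 KT libraries, 6 over Lkb1 and 27 over Sik. The pooled rate was 24.9-fold higher in KT than in Lkb1 (95% exact binomial interval 11.3 to 68.5, counting error only) and 9.14-fold higher than in Sik (6.12 to 14.2). Bcl2l15 fell by 4.49 on the log2 scale in Lkb1 (SE 0.718, adjusted p = 0.0143) and by 2.91 in Sik (SE 0.532, adjusted p = 0.00465).

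Within Sik, Bcl2l15 fell by 3.05 (log2, SE 0.685, adjusted p = 0.0246) in sgSik1 against KT. The change in sgSik1-3 against KT was -2.65 (SE 0.8, adjusted p = 0.0819). The sgSik1 call did not pass without KT replicate 1, 2 or 3 or sgSik1 replicate 1 or 3, with adjusted p from 0.0562 to 0.0927. Between sgSik1-3 and sgSik1 the difference was 0.41 (SE 0.82, adjusted p = 1). The ranges of Lkb1 and Sik did not overlap, but the difference between them, -1.58 (SE 0.695), had an adjusted p of 0.369.

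Without KT replicates 2 and 3 the Bcl2l15 change was -4.25 (log2) in Lkb1 (adjusted p = 0.21) and -2.71 in Sik (adjusted p = 0.0917). Without KT replicate 3 alone, the adjusted p in Lkb1 was 0.0609. Of the markers of other lung cells, the 11 macrophage genes summed to 5731 to 13650 CPM in KT, 714 to 2033 in Lkb1 and 91.5 to 1081 in Sik, and the 6 club cell genes to 399.7 to 3229, 57.6 to 88.2 and 24.1 to 109.7. The 6 ciliated cell genes summed to 35.2 to 67.0, 3.65 to 21.1 and 0.655 to 7.12 CPM. Other lists overlapped KT in both groups. The 7 endothelial genes summed to 14.8 to 40.3 CPM in KT, 1.34 to 214.1 in Lkb1 and 17.0 to 42.5 in Sik. The 8 fibroblast and pericyte genes summed to 28.5 to 394.5, 2.55 to 423.7 and 14.1 to 40.5 CPM. Outside KT, Siglec5 was at 0 in every library, as it was in KT replicate 4. Emr1, Marco, Ear2 and Ctss were at 0 in some libraries outside KT and in none of KT. None of Cd68, Lyz2 or Scgb1a1 was at 0 outside KT. The macrophage sum includes Lyz2, and how much of it came from any single gene was not examined. Of 11 tested gastric and gut markers, 9 rose in Sik against KT and none was called in Lkb1, with sums of 45.7 to 86.7 CPM in KT, 36.0 to 1690 in Lkb1 and 613 to 2579 in Sik. The part of these cell types in the Bcl2l15 result was not tested. An annotated gene on the same strand, Gm43064, shares 569 bp of exon with Bcl2l15 and is not a row of the count table.

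Bmf spans chr2:118528757-118549687 on the minus strand, with 4831 bp of exon and no overlapping gene. It gave 43.7, 24.6, 24.5 and 34.6 CPM in the KT libraries, 10.7, 22.5 and 21.7 in the Lkb1 libraries, 11.7, 15.9 and 9.44 in those of sgSik1 and 2.60 and 2.35 in those of sgSik1-3. Every Lkb1 and Sik library lay below every KT library, Lkb1 overlapped sgSik1, and the 2 sgSik1-3 libraries were the lowest of all 12. The 2 sgSik1-3 libraries held 24 Bmf counts in all. Bmf fell by 1.91 on the log2 scale in Sik against KT (SE 0.494, adjusted p = 0.0228). The change in Lkb1 against KT was -0.80 (SE 0.561, adjusted p = 0.603), and the difference between Lkb1 and Sik was 1.11 (SE 0.524, adjusted p = 0.393).

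By title, 1 member fell and none rose in sgSik1-3 against KT, beside 1.15% and 1.74% of all tested genes, and 1 fell and none rose in sgSik1 against KT, beside 1.13% and 2.71%. Ranges did not overlap KT for 1 member that was higher and 2 that were lower in sgSik1 (8.24% and 10.6% of all tested genes), and for 1 higher and 2 lower in sgSik1-3 (14.9% and 20.9%). Bmf fell by 3.66 in sgSik1-3 against KT (log2, SE 0.548, adjusted p = 0.0044), and its change in sgSik1 against KT was -1.34 (SE 0.397, adjusted p = 0.0682). Between sgSik1-3 and sgSik1, Bmf differed by -2.32 (SE 0.532, unadjusted p = 0.000483, adjusted p = 0.934). In that comparison edgeR called 0 of 15303 tested genes, 528 (3.45%) had an unadjusted p under 0.05, and DESeq2 called 6 genes, none a member. Ranges did not overlap for 2 members, Bmf and Bcl2l1, both lower in sgSik1-3, beside 8.55% of all tested genes. The Sik call did not pass the threshold without KT replicate 1 (-1.73, adjusted p = 0.0615) or without KT replicates 2 and 3 (-2.23, adjusted p = 0.102), and the sgSik1-3 call did not pass without either of its libraries (adjusted p = 0.0596 and 0.0599). It passed without KT replicates 2 and 3 (-3.97, adjusted p = 0.0469). The macrophage, club and ciliated sums given above move with Bmf in the KT against Sik comparison too, and their part in it was not tested.

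The genes whose profile over the 12 libraries was most like that of Bmf, by root-mean-square difference of centred log2 CPM among 10445 genes, were Tacc1 (0.343), Stard8 (0.415) and Acot2 (0.495). The RMS deviation of Bmf from its own mean was 1.24. Tacc1, a centrosomal protein gene, was at 103.9 ± 22.3 CPM in KT (SD, n = 4), 36.0 ± 3.88 in sgSik1 (n = 3) and 11.9 ± 5.75 in sgSik1-3 (n = 2). For Bcl2l15 the nearest were Scarf1 (0.754), St6galnac2 (0.766) and Pdzk1ip1 (0.776), beside an RMS deviation of 1.48 for Bcl2l15 itself.

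Of the survival genes, Bcl2 (chr1:106538178-106714274, minus strand) had 5.82, 8.64, 12.4 and 9.34 CPM in the KT libraries, against 30.5, 12.24 and 13.96 for Lkb1, 33.5, 21.6 and 16.6 for sgSik1 and 19.4 and 8.87 for sgSik1-3. The sgSik1 libraries lay above all KT libraries, and the others overlapped KT. Scaled to raw totals, sgSik1 overlapped KT too, at 13.2 to 21.78 CPM against 9.616 to 23.07 in KT. The log2 difference from KT was 1.06 in Lkb1 (SE 0.45, adjusted p = 0.317) and 1.13 in Sik (SE 0.409, adjusted p = 0.0815). Bcl2 shares 558 bp of exon with D630008O14Rik on the other strand, and whether reads were counted by strand is not given in the sources used here.

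Mcl1 (chr3:95658788-95663176, plus strand) gave 217.9, 389.2, 259.4 and 163 CPM in the KT libraries, 561.7, 589.6 and 645.4 in the Lkb1 libraries, 127.3, 349.6 and 298.3 in those of sgSik1 and 326 and 228.6 in those of sgSik1-3. The 3 Lkb1 libraries lay above all 9 others on this scale. Scaled to raw totals they overlapped KT, with 488.7, 654.7 and 546.7 CPM in Lkb1 and 645.2 in KT replicate 2. The difference of 1.22 (log2) between Lkb1 and KT (SE 0.382) had an adjusted p of 0.152 with edgeR and 0.049 with DESeq2, so the call turned on the test used. Between Lkb1 and Sik the difference was 1.17 (SE 0.36, adjusted p = 0.198), and between Sik and KT it was 0.05 (SE 0.338, adjusted p = 0.952). The 18 dissociation response genes, such as Fos and Jun, summed to 2021 to 5710 CPM in KT, 13390 to 22160 in Lkb1 and 9682 to 28860 in Sik, and their part in the Mcl1 values was not tested.

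Bcl2l1 (chr2:152780668-152831728, minus strand), which gives BCL-XL and the short BCL-XS from alternative splicing, was counted as 1 row. It had 58.9, 22.6, 16.5 and 36.1 CPM in the KT libraries, against 49.3, 27.7 and 33.2 for Lkb1, 167.1, 48.4 and 52.95 for sgSik1 and 43.7 and 38.6 for sgSik1-3. The libraries of KT and the other groups overlapped. The log2 difference from KT was 0.14 in Lkb1 (SE 0.531, adjusted p = 0.947) and 1.07 in Sik (SE 0.478, adjusted p = 0.155). In Sik the mean was set in part by sgSik1 replicate 1, at 167.1 CPM, where the next highest library was at 52.95. Scaled to raw totals, sgSik1 replicate 1 was at 65.76 CPM, below sgSik1 replicate 3 (69.51) and KT replicate 1 (97.2).

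The effectors Bax (chr7:45461697-45466898, minus strand) and Bak1 (chr17:27019810-27029009, minus strand) overlapped KT in every group, and neither was called. Bax was at 5.58 to 16.8 CPM in KT, 4.32 to 5.88 in Lkb1, 5.51 to 21.9 in sgSik1 and 4.34 to 9.45 in sgSik1-3. The log2 difference of Bax was -0.94 in Lkb1 (SE 0.543, adjusted p = 0.497) and -0.01 in Sik (SE 0.463, adjusted p = 0.995). Bak1 was at 5.36 to 18.5 CPM in KT, 8.87 to 9.55 in Lkb1, 11.9 to 54.0 in sgSik1 and 11.6 to 16.8 in sgSik1-3. Its log2 difference was -0.34 in Lkb1 (SE 0.547, adjusted p = 0.858) and 0.89 in Sik (SE 0.483, adjusted p = 0.245). Bax shares 192 bp of exon with Gm45808 on the same strand, and Bak1 256 bp with Ggnbp1 on the other strand.

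Of the other BH3-only genes, Bcl2l11 (chr2:128126038-128162547, plus strand) gave 18.9, 25.8, 23.1 and 20.8 CPM in the KT libraries, 36.7, 27.98 and 28.28 in the Lkb1 libraries, 42.9, 21.1 and 56.3 in those of sgSik1 and 45.1 and 40.7 in those of sgSik1-3. The Lkb1 and sgSik1-3 libraries lay above all KT libraries, and sgSik1 replicate 2 lay within the KT range. Scaled to raw totals, Lkb1 (23.96 to 31.92 CPM) and sgSik1-3 (28.28 to 33.71) overlapped KT (23.63 to 43.15). The log2 difference from KT was 0.48 in Lkb1 (SE 0.334, adjusted p = 0.597) and 0.89 in Sik (SE 0.301, adjusted p = 0.0636). Bbc3 (chr7:16308393-16318205, plus strand) was at 0.596 to 1.26 CPM in KT, 1.03 to 2.39 in Lkb1, 0.6 to 1.14 in sgSik1 and 1.09 to 1.18 in sgSik1-3, on 30, 42, 22 and 11 counts. Its log2 difference was 1.16 in Lkb1 (SE 0.653, adjusted p = 0.485) and 0.19 in Sik (SE 0.602, adjusted p = 0.883).

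Pmaip1 varied more within groups than between them, at 1.49 to 9.23 CPM in KT, 0.367 to 9.96 in Lkb1, 1.28 to 5.13 in sgSik1 and 0.945 to 2.17 in sgSik1-3. Its log2 difference from KT was -0.44 in Lkb1 (SE 0.886, adjusted p = 0.897) and -1.22 in Sik (SE 0.782, adjusted p = 0.326).

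Between Lkb1 and Sik no member was called, beside 0.221% of all tested genes, and DESeq2 called no member either. At an unadjusted p under 0.05 there were 3 members, Mcl1, Bak1 and Bcl2l15, beside 12.7% of all tested genes. Ranges did not overlap for 1 member that was higher in Lkb1 and 2 that were lower, beside 2.45% and 2.93% of all tested genes.

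Ratios of members within a library need no scaling between libraries. The log2 ratio of Bax to Bcl2l1 counts was -1.80, -2.01, -1.06 and -1.94 in KT, -3.22, -2.67 and -2.48 in Lkb1, -2.93, -2.49 and -3.26 in sgSik1, and -2.20 and -3.12 in sgSik1-3. All 8 libraries outside KT lay below all 4 KT libraries, which is a description, with no test. With each group set against KT separately, all Lkb1 libraries lay below KT for 5.77% of the tested genes set over Bcl2l1. All Sik libraries did so for 13.3%. The share of genes for which both held was not computed. The log2 ratio of Mcl1 to Bcl2l1 was 3.51 to 4.41 in Lkb1, 1.89 to 4.10 in KT and -0.39 to 2.90 in Sik, so Lkb1 lay above all Sik libraries and overlapped KT. The lowest Sik value was that of sgSik1 replicate 1, and the other Sik libraries were at 2.49 to 2.90. The share of all genes over Bcl2l1 that separate Lkb1 from Sik was not computed.

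**Figure D3:**
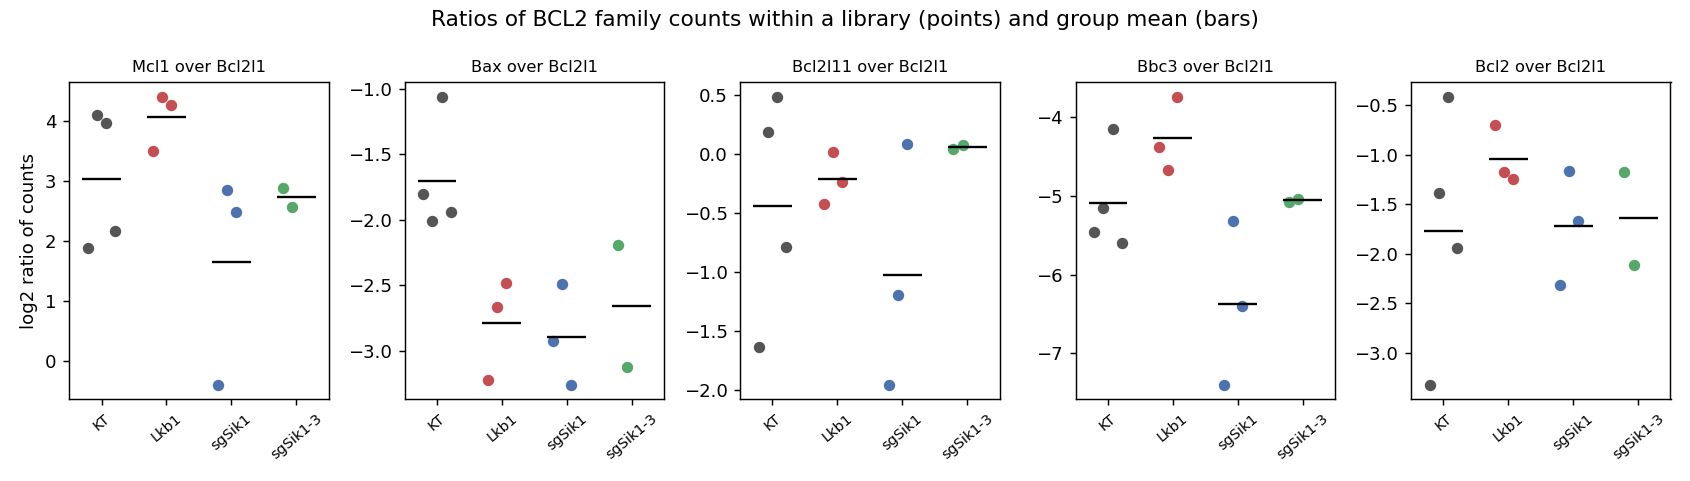
Log2 ratios of counts between members in each library (points) and group means (bars), for 5 pairs over Bcl2l1. Only for Bax over Bcl2l1, of the pairs plotted, did every library outside KT lie below all KT libraries.

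Of 12 tested genes in a list of other BCL2 family members, 2 rose and 4 fell in Sik against KT, beside 5.81% and 6.56% of all tested genes. Their median was 0.02 (log2), beside -0.03 over all tested genes. Bok, an effector-like gene, rose by 3.25 (SE 0.784, adjusted p = 0.0174), from 2.68 to 3.82 CPM in KT to 14.4 to 54.3 in Sik. In Lkb1 it was at 53.6, 3.81 and 2.02 CPM, so 1 library stood far above the others. Bid, the BH3-only link from death receptors to mitochondria, rose by 2.37 (SE 0.575, adjusted p = 0.0172), from 0.819 to 1.29 CPM in KT to 2.84 to 11.7 in Sik.

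Bcl2a1a and Bcl2a1b, A1 survival genes expressed in leukocytes, fell in Sik (adjusted p = 0.0138 and 0.0224). They share reads with near-identical copies, so their split is uncertain. Bcl2a1a had 76 counts over KT and 3 over Sik, a ratio of 26.5 (95% interval 8.72 to 131, counting error only). The macrophage sum, 5731 to 13650 CPM in KT and 91.5 to 1081 in Sik, moves with them, and its part was not tested. The sums of the 6 leukocyte markers overlapped, at 159.3 to 224.1 CPM in KT and 112.3 to 172 in Sik. Of 4 leukocyte markers tested, 2 fell in Sik, beside 6.56% of all tested genes. Bcl2l2 (BCL-W), chosen after its values were seen, fell by 0.99 (SE 0.284, adjusted p = 0.0338). In Lkb1 against KT none of the 12 genes was called, with a median of -0.37.

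Of 20 downstream genes of the mitochondrial pathway, 1 fell in Sik, beside 6.56% of all tested genes, and none was called in Lkb1. Birc2, an inhibitor of apoptosis, fell by 1.36 in Sik (SE 0.417, adjusted p = 0.0443). The medians were 0.21 in Sik and 0.01 in Lkb1.

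Of 21 p53 genes, 3 rose and 1 fell in Sik, beside 5.81% and 6.56% of all tested genes, with a median of 0.39. The list had 1 rise in Lkb1, beside 0.611% of all tested genes, with a median of 0.29. Cdkn1a, which gives the cell cycle inhibitor p21, rose by 2.87 in Sik (SE 0.676, adjusted p = 0.0152). Its level of 3151 CPM in sgSik1 replicate 1 stood above the other Sik libraries, at 253.7 to 618.4, and without that library the change was 1.68 (adjusted p = 0.0135). Trp53 rose by 1.14 (adjusted p = 0.0255) and the death receptor gene Tnfrsf10b by 1.37 (adjusted p = 0.0259), while Sesn1 fell by 1.43 (adjusted p = 0.0328). In Lkb1, Plk2 rose by 1.87 (SE 0.413, adjusted p = 0.0414). Bbc3, Pmaip1 and Bax, p53 targets of the BCL2 family, were not called in either comparison.

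Beside the counts of the lists that follow, 5.81% of all tested genes rose in Sik and 0.611% in Lkb1. Of 11 death receptor genes, Bid and Tnfrsf10b rose in Sik and none was called in Lkb1. Both rises were already counted above, in the lists of other BCL2 family and p53 genes. Of 12 stress response genes, Atf4 rose by 0.94 in Sik (SE 0.293, adjusted p = 0.0487), and none was called in Lkb1, where the median was 0.48. Of 22 regulators of BCL2 genes, Myc (2.28, SE 0.605, adjusted p = 0.0252) and Bag3 (1.66, SE 0.477, adjusted p = 0.0352) rose in Sik, and Bag3, a chaperone cofactor, rose in Lkb1 (2.27, SE 0.524, adjusted p = 0.0497). The dissociation response sums given above move with these genes, and their part was not tested.

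Without KT replicates 2 and 3, chosen after seeing the data, none of the genes in these lists was called in either comparison. Without sgSik1 replicate 1, likewise chosen, 4 of the other BCL2 family genes, 5 p53 genes and 2 death receptor genes were called in Sik. The 2 death receptor genes were again Bid and Tnfrsf10b, each also counted in another of these lists. No stress response gene or regulator was called. Over the whole table, 1366 of 13517 tested genes were called in Sik in that run. Bok then had an adjusted p of 0.0521. Without Lkb1 replicate 1, no gene of any list was called in Lkb1.

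**Figure D4:**
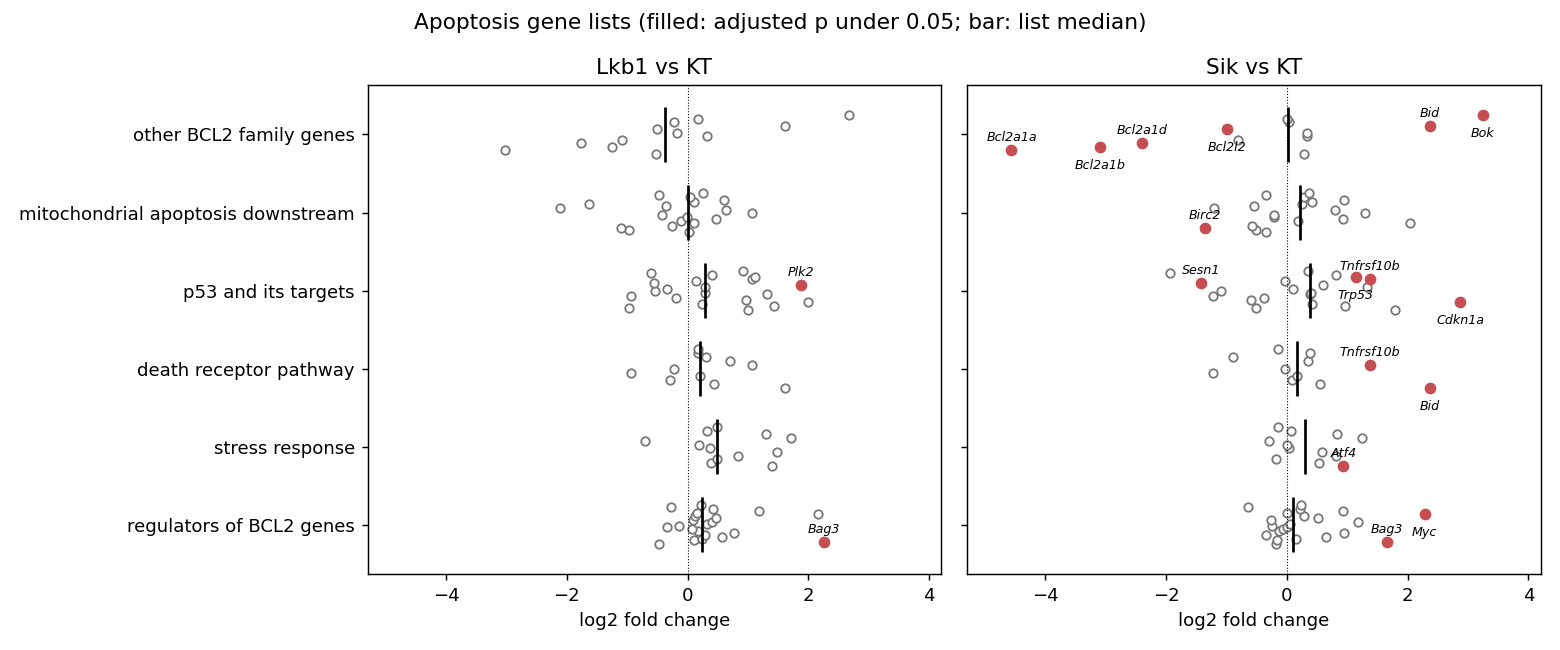
Log2 fold changes (x axis) of the genes of 6 apoptosis lists (rows) in Lkb1 and Sik against KT, with list medians as bars and genes past an adjusted p of 0.05 filled and named; 1 downstream gene is not plotted. More genes are filled in Sik than in Lkb1, and the medians lie between -0.37 and 0.48.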

How the data were processed

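RNA came from sorted cells and was amplified before library construction, per the labels' protocols. The authors deposited raw read counts per gene, made with STAR 2.4.2a and HTSeq on mm10, per the submitters' processing notes. The gene annotation, the strand option and the HTSeq version were not given in the sources used here.

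Members and lists were chosen with earlier results of these data known. The whole count table entered edgeR 4.0.16, under R 4.3.3 (TMM, filterByExpr, robust quasi-likelihood test, 2-sided), with Benjamini-Hochberg adjustment over 13575 genes in 3 genotype groups or 15303 in 4 title groups, and a threshold of 0.05. All 10 members passed the filter on low counts in both fits. The method was tested on simulated data with less spread than these. The fitted common dispersion here was 0.262 in 3 groups and 0.287 in 4. How the method performs at this spread was not tested. Alternatives were DESeq2 1.42.0, other scalings, no filter, a replicate block and left-out libraries. Ratios used counts plus 0.5. Members were all named; of each list, at most the 4 called genes with the smallest p per comparison, and the 3 nearest profiles (mean of at least 2 CPM) of each called member. No 2 libraries of a group agree within sampling noise. Exon lengths came from GENCODE M21. Intervals cover counting error only. The result of 1 gene of the downstream list is not reported here.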

Additional observations from a re-analysis of the deposited data

Results flagged for a closer look

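In 2 of the 20 sets of values examined, 1 library lay far from the rest, and chance gives about 1 in 20. Both involve sgSik1 replicate 1 among the 5 Sik libraries. Bcl2l1 was at 167.1 CPM there, and the next highest Sik library was at 52.95. Bak1 was at 54.0 CPM there, and the next was at 16.8. In this library the 4 most abundant transcripts took 74.23% of counts, and its scaled library size was 0.394 of its total. Scaled to raw totals, Bcl2l1 was at 65.76 CPM there and at 69.51 in sgSik1 replicate 3. Bak1 was at 21.25 CPM there on that scale, with 15.62 in sgSik1 replicate 3 and 21.57 in KT replicate 1. The distance of this library from the rest thus depended on the scaling. The part of the abundant transcripts in these values was not tested.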

How the results depend on the processing

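The depth limits Bcl2l15 and Bbc3 most, which rest on few counts. Bcl2l15 and Bmf stayed lower than in KT under every setting run for the comparisons in which they were called. The number of members called in Lkb1 against KT was 1, with 2 under DESeq2 and 0 without KT replicates 2 and 3. In Sik against KT it was 2, with 4 without a filter on low counts and 0 without KT replicates 2 and 3. In sgSik1 against KT it was 1, with 3 under DESeq2, 4 without the filter and 0 without KT replicates 2 and 3. In sgSik1-3 against KT it was 1, with 2 under DESeq2 and 3 when only the groups compared were fitted. The causes were not tested; fewer libraries entered the fits without KT replicates 2 and 3.

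Leaving out each library in turn gave 0 to 1 called members in Lkb1 against KT (0 without KT replicate 3), and 1 to 3 in Sik against KT (1 without KT replicate 1; 3 without Lkb1 replicate 1 or sgSik1 replicate 2). It gave 0 to 3 in sgSik1 against KT (0 without KT replicate 1, 2 or 3 or sgSik1 replicate 1 or 3; 3 without Lkb1 replicate 1; 2 without sgSik1 replicate 2) and 0 to 2 in sgSik1-3 against KT (0 without either of its replicates; 2 without Lkb1 replicate 1). Under edgeR in Sik against KT, Bcl2 (adjusted p = 0.0453) and Bcl2l11 (adjusted p = 0.0201) were each called in 1 of these runs, as increases. Changes that were not called reversed in these runs: Bax in Sik (-0.51 to 0.37), Bcl2l1 in Lkb1 (-0.13 to 0.55), Mcl1 in Sik (-0.14 to 0.30) and Pmaip1 in Lkb1 (-2.46 to 0.11). Without KT replicates 2 and 3, Bcl2l1 (-0.34) and Pmaip1 (1.12) reversed in Lkb1, as did Pmaip1 (0.29) and Bbc3 (-0.0025) in Sik. Over all genes, DESeq2 called 498 against 158 in Lkb1, and 325 against 30 in Lkb1 against Sik.

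The replicate numbers are not said to pair libraries. Of 15 pairs with the same number, 6 correlated over 0.1 (-0.335 to 0.249), and 3 of 12 libraries correlated best with their own number. With the replicate number as a block, 1 member was called in Sik against KT, as Bmf (-1.90) had an adjusted p of 0.0687. Bak1 in Lkb1 (0.10) and Mcl1 in Sik (-0.090) reversed under the block.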
